A study of Mus musculus with 16 samples.

Results

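The enzymes that build serine, pass its carbon to folate and turn homocysteine into cysteine were followed in melanoma tumors grown in lean or obese mice, before and after chemotherapy with etoposide (ETS), which poisons topoisomerase II and breaks DNA. The 10 genes Phgdh, Psat1, Psph, Shmt1, Shmt2, Mthfd2, Mthfd1l, Aldh1l2, Cbs and Cth were taken by symbol from a table of 45777 genes, and each symbol was found. They were chosen by name as a family, with the read counts, TPM and test results of all 4 groups already known, so their values and adjusted p values describe these genes and are no independent evidence. After ETS, 6 of the 10 fell in lean tumors, where 22.8% of all tested genes fell, and 7 fell in obese tumors, where 19.0% did. Cth fell the most in both hosts, while Cbs rose in lean tumors. Aldh1l2 was 5.37-fold higher in obese than in lean tumors before therapy, the largest of the 10 host differences.

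B16F10, a melanoma cell line from a C57BL/6 mouse, was injected under the skin of C57BL/6J mice (lean) or of ob/ob mice on the C57BL/6J background (obese), which lack leptin and overeat. The mice were 6 weeks old at inoculation. ETS was given into the abdomen at 20 mg per kg, in 5 injections, once tumors had reached the size set by the study, and tumors were collected a day after the course. Poly(A) RNA of 16 tumors was sequenced, with 4 tumors in each of the 4 groups: lean pre-therapy, lean post-ETS, obese pre-therapy and obese post-ETS. All groups carry the same tumor line, and the hosts of the obese groups model loss of leptin and not obesity from diet. The labels name the untreated groups pre-therapy, with no vehicle group beside them, so the drug and the added days of growth cannot be told apart. The labels number the tumors of a group but say nothing of which animals they came from, and p values then measure the spread between these tumors.

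Serine is made from the glycolytic intermediate 3-phosphoglycerate in a chain of 3 reactions, catalysed by PHGDH, PSAT1 and PSPH. Serine hydroxymethyltransferases split it into glycine and a carbon unit on tetrahydrofolate, SHMT1 in the cytosol and SHMT2 in mitochondria, and the mitochondrial enzymes MTHFD2, MTHFD1L and ALDH1L2 carry that unit on to formate or to carbon dioxide, which feeds purine and thymidylate synthesis or yields NADPH. Serine is also joined to homocysteine by CBS, and CTH cleaves the resulting cystathionine to cysteine, the limiting amino acid of glutathione. Many of these genes are known targets of ATF4, the transcription factor of the amino acid stress response.

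Read totals per tumor ran from 47199949 to 61655287. Of the 45777 genes, 29568 had a count of 0 in at least 1 tumor and were left out of the tests, and all 10 enzymes were among the 16209 genes tested. Phgdh and Cbs overlap no other annotated gene. The span of Psat1, Psph, Shmt1, Shmt2 and Aldh1l2 overlaps a gene on the opposite strand and that of Cth, Mthfd2 and Mthfd1l a gene on the same strand, and use of strand in counting was not given in the sources used here, so reads of the partners may be counted in. The 11 melanocyte markers, among them Pmel, summed to between 9223 and 22614 TPM (a share of all transcripts after division by transcript length) in every tumor, which fits the labelled melanoma. The tumors also held host cells, and in whole tumors fewer cells of a type and less RNA per cell cannot be told apart. Levels compared between tumors are given below as CPM, counts scaled to the library total after TMM correction, and levels compared between genes as TPM.

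The start regions of Phgdh and Psat1, the opening steps of serine synthesis, are shown first because both genes fell after ETS in both hosts, and because hypoxia of obese tumors was part of the study's question. RefSeq promoter windows on GRCm38.p6 (the assembly of mm10), from 250 bases before to 50 bases after the start, matched 8 of the 10 genes in 9 windows, with none for Cth or Aldh1l2. The stretches of 140 bases below run from 170 to 31 bases before the start site on the minus strand, at chr3:98340000-98340139 for Phgdh and chr19:15925090-15925229 for Psat1. Capitals mark each match to the core of the hypoxia response element, ACGTG or GCGTG, on either strand.
Phgdh: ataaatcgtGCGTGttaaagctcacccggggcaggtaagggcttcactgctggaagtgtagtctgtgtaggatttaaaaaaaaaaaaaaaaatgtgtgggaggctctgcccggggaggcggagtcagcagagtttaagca
Psat1: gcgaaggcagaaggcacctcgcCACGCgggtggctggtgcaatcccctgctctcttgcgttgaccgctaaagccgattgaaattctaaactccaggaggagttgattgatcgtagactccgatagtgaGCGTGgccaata

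The Phgdh stretch holds 1 match, and that of Psat1 holds 2. Over all 32851 windows of 300 bases, ACGTG was found in 19.6% and GCGTG in 32.4%. Among the 9 windows of the enzymes they were found in 4 and 7. Psat1 has 2 of these 9 windows, of which 1 is shown, and both hold GCGTG. The ACGTG match of Psat1 lies in the window not shown. The E-box CACGTG, which contains ACGTG, was found in 7.15% of all windows and in 1 of the 9, that of Cbs, starting 229 bases before the start site. The antioxidant element TGACNNNGC was found in 12.4% of all windows and in 2 of the 9, Phgdh and Psph. The C/EBP-ATF element TGATGNAA was found in 3.97% of all windows and in 0 of the 9, which says only that these letters are not in these windows. All motifs were searched on both strands, and a match describes the sequence and is not evidence that a factor binds there.

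Levels per length before therapy spanned a wide range. In lean pre-therapy tumors Phgdh stood at 236 ± 43.2 TPM (mean ± SD, n = 4, as in all groups below) and Shmt2 at 199.5 ± 7.62. Psat1, Mthfd1l and Mthfd2 followed at 149 ± 19.3, 139 ± 13.1 and 133 ± 19.5 TPM, and these neighbours did not differ beyond their spread, nor did Phgdh from Shmt2. A clear step separated them from Psph at 38.9 ± 8.11, Shmt1 at 26.6 ± 3.45 and Aldh1l2 at 14.5 ± 4.04 TPM. The transsulfuration pair was lowest, with Cth at 8.26 ± 2.44 and Cbs at 1.12 ± 0.433 TPM. Over all 16 tumors Phgdh, Shmt2 and Mthfd1l held on average 24.2%, 19.96% and 18.5% of the summed TPM of the 10 enzymes, and Cbs held 0.187%.

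**Figure D1:**
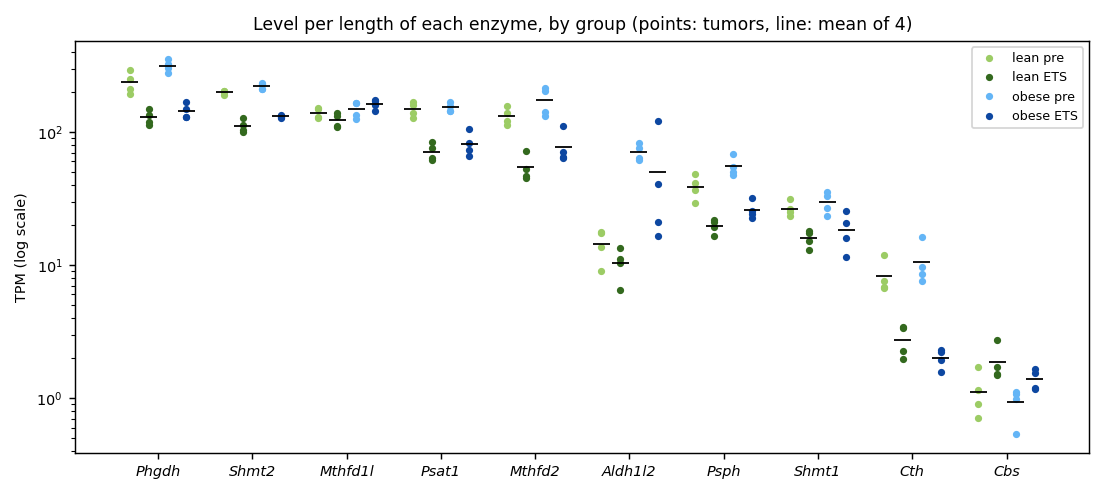
Level of each enzyme per transcript length in TPM (log axis) in the 4 groups, with 1 point per tumor and a line at the mean of 4. Phgdh and Shmt2 sit highest and Cbs lowest, and Aldh1l2 is the gene whose obese pre-therapy tumors (61.3 to 82.7 TPM) stand farthest from the lean ones (9.07 to 17.6 TPM).

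In obese tumors Aldh1l2 took another place in the order. It reached 70.8 ± 10.2 TPM before therapy, above Psph at 55.1 ± 9.63 and Shmt1 at 29.6 ± 5.53. Phgdh remained first at 314 ± 31.2 TPM, followed by Shmt2 at 221 ± 12.7 and Mthfd2 at 172 ± 42.2. Between the paired compartments, Shmt2 exceeded Shmt1 by 7.59 ± 0.948 times in lean and 7.66 ± 1.43 times in obese pre-therapy tumors, and by 7.07 ± 0.869 and 7.83 ± 2.93 times after ETS. That ratio moved by less than its spread. The ratio of Mthfd2 to Mthfd1l, in contrast, went from 0.963 ± 0.189 to 0.441 ± 0.0753 in lean tumors and from 1.22 ± 0.459 to 0.476 ± 0.118 in obese tumors. The ratio of Cth to Cbs went from 7.96 ± 2.59 to 1.53 ± 0.483 in lean tumors and from 13.6 ± 11.1 to 1.504 ± 0.482 in obese tumors. For both of these ratios the tumors before and after ETS did not overlap within a host.

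The first comparison asked how the enzymes differed after ETS within each host. In lean tumors 1 of the 10 rose (Cbs) and 6 fell (Cth, Phgdh, Psat1, Psph, Shmt2, Mthfd2), while 21.0% of all tested genes rose and 22.8% fell. In obese tumors 0 rose and 7 fell (Cth, Phgdh, Psat1, Psph, Shmt1, Shmt2, Mthfd2), beside 21.2% and 19.0% of all tested genes. The median log2 fold change of the 10 was -0.49 in lean and -0.74 in obese tumors, where the median of all tested genes was -0.01 and 0.01. The 2 comparisons use different tumors. A gene is said to rise or fall where the quasi-likelihood test of edgeR gave an adjusted p under 0.05, adjusted over all 16209 genes.

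**Figure D2:**
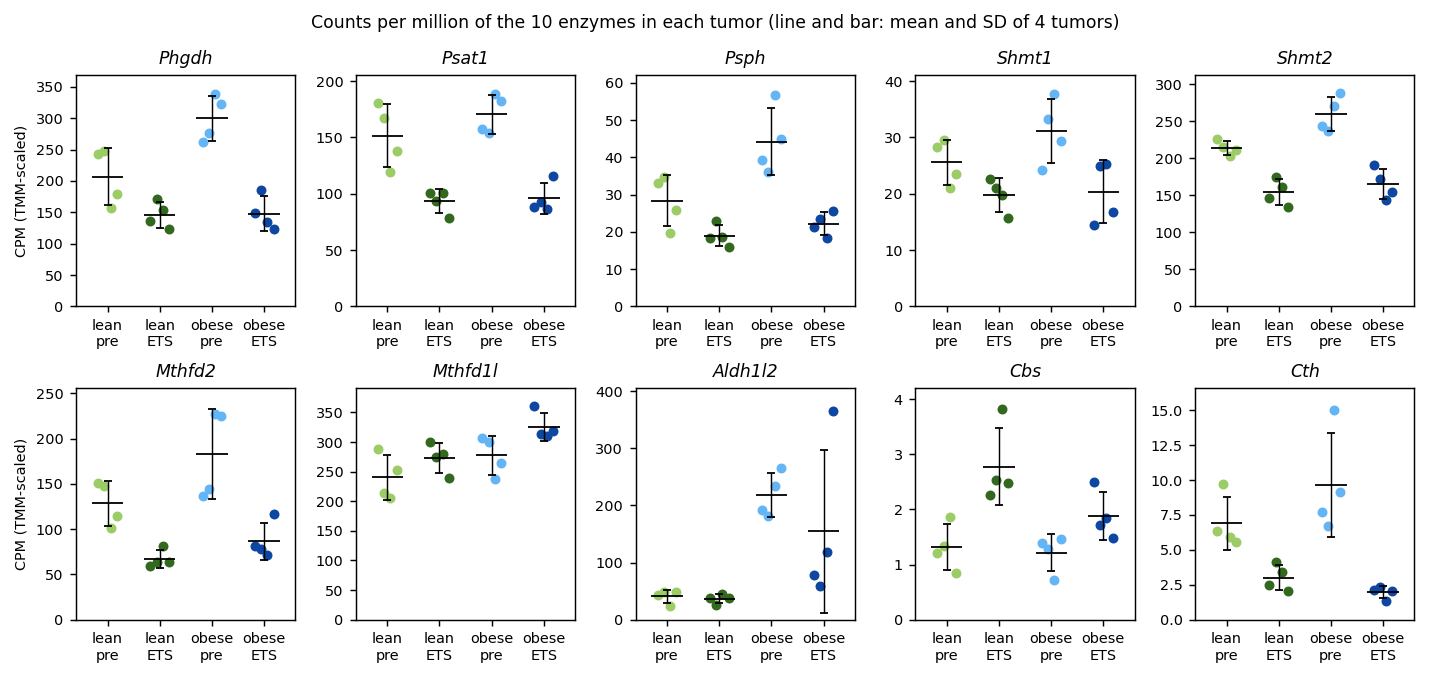
TMM-scaled CPM of each enzyme in the 16 tumors, 1 panel per gene with its own axis from 0, with a point per tumor and a line and bar for the mean and SD of 4. Psat1, Shmt2, Mthfd2 and Cth lie lower after ETS in both hosts with no overlap, Cbs lies higher, and 1 obese post-ETS tumor stands at 365 CPM of Aldh1l2.

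Phgdh, on chromosome 3 at 98313171 to 98339969 (GRCm38.p6), encodes phosphoglycerate dehydrogenase, which opens the pathway. Its 4 lean pre-therapy tumors had 243, 248, 157 and 179 CPM and its lean post-ETS tumors 136, 171, 154 and 124. The obese tumors had 262, 277, 338 and 323 CPM before and 149, 186, 134 and 123 after ETS. The lean groups overlapped, since post-ETS tumor 2 exceeded pre-therapy tumor 3, and the obese groups did not. Phgdh fell by 0.50 on the log2 scale in lean tumors (SE 0.16, adjusted p = 0.0210) and by 1.02 in obese tumors (SE 0.16, adjusted p = 0.000316). The lean call rested on single tumors, with an adjusted p of 0.0596 without pre-therapy tumor 1, 0.0729 without pre-therapy tumor 2 and 0.0622 without post-ETS tumor 4.

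Psat1, on chromosome 19 at 15905123 to 15925059, encodes the aminotransferase of the middle step. Its CPM values were 181, 167, 119 and 138 in lean pre-therapy tumors against 101, 93.9, 100.4 and 78.0 after ETS. In obese tumors they were 158, 154, 189 and 182 against 88.0, 92.8, 86.8 and 116. Every post-ETS tumor lay below every pre-therapy tumor of its host. Psat1 fell by 0.70 (SE 0.14, adjusted p = 0.000956) in lean and by 0.83 (SE 0.14, adjusted p = 0.000350) in obese tumors on the log2 scale, the most similar point estimates in the hosts among the 3 serine synthesis genes.

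Psph, on chromosome 5 at 129765558 to 129787443, encodes the phosphatase that releases free serine. It was the least abundant of the 3, at 33.2, 34.6, 19.8 and 26.0 CPM before and 18.4, 22.9, 18.5 and 16.1 after ETS in lean tumors. In obese tumors it stood at 39.2, 36.1, 56.7 and 44.9 before and 21.4, 23.5, 18.3 and 25.7 after ETS. The lean groups overlapped in the range of pre-therapy tumor 3 and the obese groups were apart. Psph fell by 0.58 (SE 0.18, adjusted p = 0.0175) in lean and by 0.99 (SE 0.18, adjusted p = 0.000808) in obese tumors on the log2 scale. Without lean pre-therapy tumor 2 or lean post-ETS tumor 4 the lean value had an adjusted p of 0.0621 or 0.0513.

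Shmt2, on chromosome 10 at 127517123 to 127522444, encodes the mitochondrial hydroxymethyltransferase. Its values were 226, 215, 204 and 211 CPM before and 146, 175, 162 and 134 after ETS in lean tumors. In obese tumors they were 244, 237, 270.3 and 288 before and 190.3, 173, 144 and 154 after. The groups did not overlap in either host. Shmt2 fell by 0.47 (SE 0.10, adjusted p = 0.00219) in lean and by 0.65 (SE 0.10, adjusted p = 0.000265) in obese tumors on the log2 scale.

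Shmt1, its cytosolic counterpart on chromosome 11 at 60788897 to 60811265, had 28.2, 29.5, 21.1 and 23.5 CPM before and 22.6, 21.0, 19.9 and 15.7 after ETS in lean tumors. Obese tumors had 24.3, 33.2, 37.7 and 29.4 before and 14.5, 25.0, 25.2 and 16.8 after. The groups overlapped in both hosts. The lean value of -0.37 did not pass (SE 0.19, adjusted p = 0.124), and Shmt1 fell by 0.61 in obese tumors (SE 0.19, adjusted p = 0.0189). The obese call was lost without pre-therapy tumor 3, post-ETS tumor 1 or post-ETS tumor 4, with adjusted p of 0.0665, 0.0673 and 0.0531.

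Mthfd2, on chromosome 6 at 83305704 to 83326011, encodes the mitochondrial methylene-tetrahydrofolate dehydrogenase and cyclohydrolase, an enzyme low in most adult tissues and high in many tumors. It had 151, 148, 101 and 114 CPM before and 59.1, 63.5, 81.9 and 64.1 after ETS in lean tumors. In obese tumors the values were 137, 144, 227 and 225 before and 81.0, 78.2, 71.1 and 116 after. Every tumor was lower after ETS than each pre-therapy tumor of its host. Mthfd2 fell by 0.94 (SE 0.20, adjusted p = 0.00188) in lean and by 1.08 (SE 0.20, adjusted p = 0.000857) in obese tumors on the log2 scale, the second largest fall of the 10 in both hosts.

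Mthfd1l, on chromosome 10 at 3972892 to 4167081, encodes the ligase that releases formate in mitochondria, the step after MTHFD2. It did not fall with Mthfd2. Its values were 288, 214, 206 and 253 CPM before and 300.3, 274, 279 and 239 after ETS in lean tumors, and 308, 299.7, 238 and 265 before and 361, 314, 309.7 and 318 after in obese tumors. The lean groups overlapped, while all 4 obese post-ETS tumors lay above the obese pre-therapy tumors. The log2 fold changes were 0.19 (SE 0.12, adjusted p = 0.207) in lean and 0.23 (SE 0.12, adjusted p = 0.125) in obese tumors, with 95% intervals from -0.06 to 0.43 and from -0.02 to 0.48, so neither passed. On the TPM scale the lean value was -0.18, of the opposite sign.

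Aldh1l2, on chromosome 10 at 83487447 to 83534146, encodes the mitochondrial enzyme that oxidises formyl-tetrahydrofolate to carbon dioxide with NADPH. Lean tumors had 43.0, 47.9, 23.8 and 48.2 CPM before and 38.2, 26.5, 44.2 and 38.7 after ETS. Obese tumors had 193, 182, 235 and 265 before and 77.5, 58.1, 118 and 365 after. In obese tumors 3 of the 4 post-ETS values were below all pre-therapy values, and tumor 4 was above them all. The log2 fold change was -0.14 in lean (SE 0.43, adjusted p = 0.813) and -0.50 in obese tumors (SE 0.43, adjusted p = 0.376), and neither passed. Without obese post-ETS tumor 4 the obese value was -1.36 with an adjusted p of 0.00208, and the difference between hosts was 1.20 with an adjusted p of 0.0425. That tumor also had the highest sums of the 8 fibroblast and 10 macrophage markers in its group, 2207 and 1548 TPM. The other 3 had 331 to 628 and 470.0 to 870 TPM. Before therapy these sums were 111 to 310 and 62.7 to 394 TPM in obese tumors. In lean tumors, with less Aldh1l2, they were 327 to 918 and 777 to 2046 TPM. Obese post-ETS tumor 4 had the lowest sum of the 11 melanocyte markers in its group, 9528 TPM, against 12956 to 18676 TPM in the others. Before therapy that sum was 9223 to 13570 TPM in obese and 18402 to 22614 TPM in lean tumors. Obese post-ETS tumor 4 also had the highest Psat1 and Mthfd2 of its group, at 116 CPM each, and the highest Psph, at 25.7 CPM. The part of melanocytes, fibroblasts and macrophages in the Aldh1l2 value was not tested.

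Cbs, on chromosome 17 at 31612623 to 31637233, encodes cystathionine beta-synthase, the entry to transsulfuration. It was a low gene, with 43 to 213 reads per tumor. Its lean values were 1.21, 1.34, 1.85 and 0.842 CPM before and 2.26, 2.54, 3.81 and 2.49 after ETS, and its obese values 1.39, 1.28, 0.720 and 1.47 before and 2.50, 1.71, 1.85 and 1.49 after. In CPM every post-ETS tumor was higher than each pre-therapy tumor of its host, by a small margin in obese mice (1.49 against 1.47). In TPM the lean groups overlapped, at 0.709 to 1.70 before and 1.49 to 2.75 after ETS. Cbs rose 2.11-fold in lean tumors (log2 1.08, SE 0.28, adjusted p = 0.00656), and by a log2 of 0.44 on the log2(TPM + 1) scale, which understates low genes. With limma on log2(TPM + 0.1) the adjusted p of this rise was 0.0447. The obese value of 1.56-fold did not pass (log2 0.64, SE 0.28, adjusted p = 0.0829).

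Cth, on chromosome 3 at 157894248 to 157925081, encodes cystathionine gamma-lyase, the next enzyme and the one that yields cysteine. It went the opposite way. Lean tumors had 6.34, 9.74, 5.95 and 5.53 CPM before and 2.48, 4.12, 3.40 and 2.07 after ETS, and obese tumors 7.69, 6.72, 14.99 and 9.17 before and 2.14, 2.37, 1.37 and 2.08 after. No post-ETS tumor reached a pre-therapy tumor of its host. Cth was 2.29-fold lower in lean tumors (log2 -1.19, SE 0.29, adjusted p = 0.00432) and 4.85-fold lower in obese tumors (log2 -2.28, SE 0.30, adjusted p = 8.06e-05), the largest fall of the 10 in each host.

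**Figure D3:**
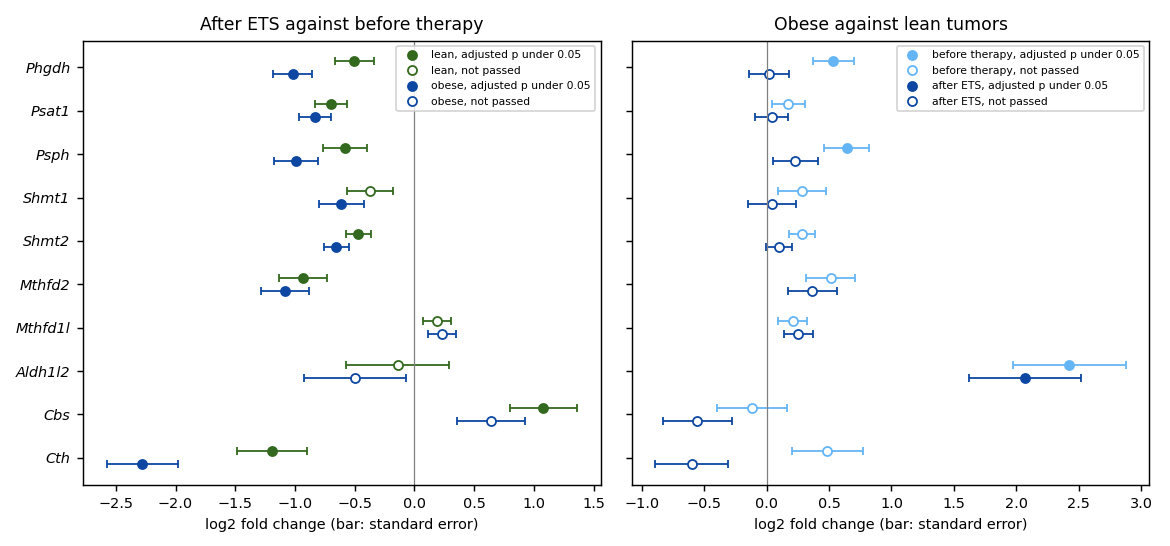
Log2 fold changes of the 10 enzymes with standard errors as bars, after against before ETS in each host (left) and obese against lean before and after ETS (right), with filled points for an adjusted p under 0.05. Cth lies farthest to the left after ETS (-1.19 lean, -2.28 obese), Cbs and Mthfd1l lie to the right of 0, and Aldh1l2 lies farthest to the right between hosts (2.42 before, 2.07 after).

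Whether the response to ETS differed between hosts was tested as the lean effect minus the obese effect. None of the 10 passed in edgeR's quasi-likelihood test, beside 6.35% of all tested genes with a difference above 0 and 10.1% with one below 0. In that test Cth and Phgdh had an unadjusted p under 0.05, but ranked only 3437 and 4487 by p among the 16209 tested genes. DESeq2 called 1 of the 10. The point estimates of 9 of the 10 were above 0 on this scale and Mthfd1l was at -0.05. The median of the 10 was 0.30, where that of all tested genes was 0.05. Cth had the largest point estimate, 1.08 (95% interval 0.22 to 1.95, adjusted p = 0.0825). It passed with DESeq2 (adjusted p = 0.0389) and without lean pre-therapy tumor 2 (adjusted p = 0.0484). Its adjusted p was 0.24 with limma on log2(TPM + 1) and 0.184 without obese pre-therapy tumor 3. Phgdh followed with 0.52 (0.03 to 1.01, adjusted p = 0.142). For the others the interval held 0, from -0.12 to 0.49 for Shmt2 at its narrowest among those that fell in both hosts and from -0.94 to 1.65 for Aldh1l2 at its widest, which leaves differences of these sizes undecided at 4 tumors per group. On the TPM scale the values of Psat1, Shmt1, Shmt2 and Mthfd2 turned below 0.

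The same tumors were compared between hosts, so the values below share tumors with those above. Before therapy 3 of the 10 enzymes were higher in obese tumors and 0 lower, beside 13.5% of all tested genes higher and 12.9% lower, with a median of the 10 of 0.38 against 0.02 over all tested genes. Aldh1l2 differed most, at 182 to 265 CPM in obese and 23.8 to 48.2 CPM in lean pre-therapy tumors, with no overlap (log2 2.42, SE 0.45, adjusted p = 0.00117). Phgdh was 1.45-fold higher (log2 0.54, SE 0.16, adjusted p = 0.0240) and Psph 1.56-fold higher (log2 0.64, SE 0.18, adjusted p = 0.0167), again with no overlap. Shmt2 did not overlap either but missed the threshold (log2 0.28, adjusted p = 0.0533), as did Mthfd2 (log2 0.51, adjusted p = 0.0693). Shmt2 passed with DESeq2 (adjusted p = 0.0347) and with another filter on low counts (adjusted p = 0.0389), and Mthfd2 with edgeR's exact test (adjusted p = 0.0491). With limma the adjusted p was 0.180 for Shmt2 on log2(TPM + 0.1) and 0.233 for Mthfd2 on log2(TPM + 1). The call of Phgdh was lost without lean pre-therapy tumor 3 or 4 or obese pre-therapy tumor 3 or 4 (adjusted p 0.0645 to 0.0750), and that of Psph without obese pre-therapy tumor 3 (0.0656), when 1 of the 10 was left. Without obese pre-therapy tumor 2, 5 were called.

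After ETS, 1 of the 10 was higher in obese tumors and 0 lower, beside 3.28% and 2.30% of all tested genes. This was Aldh1l2, at 58.1 to 365 CPM in obese and 26.5 to 44.2 CPM in lean post-ETS tumors (log2 2.07, SE 0.45, adjusted p = 0.0203). Its groups did not overlap. The adjusted p was 0.103 with only these 8 tumors in the fit, and between 0.0518 and 0.0586 without lean post-ETS tumor 2, 3 or 4. Without obese post-ETS tumor 4 the log2 value was 1.20. The serine synthesis genes were close between hosts after ETS, with log2 values of 0.02 for Phgdh (95% interval -0.33 to 0.36), 0.04 for Psat1 (-0.25 to 0.33) and 0.23 for Psph (-0.16 to 0.62). Cth and Cbs were lower in obese post-ETS tumors by point estimate, at -0.60 and -0.56, with adjusted p of 0.217 and 0.229. All 4 obese post-ETS tumors had more Mthfd1l than each lean one (log2 0.25, adjusted p = 0.187).

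The 10 enzymes together made up 836 to 1058 TPM in lean pre-therapy tumors and 484 to 629 TPM after ETS. In obese tumors they made up 1075 to 1283 TPM before and 612 to 821 TPM after. The lowest pre-therapy tumor thus exceeded the highest post-ETS tumor in both hosts. TPM are shares of all transcripts and carry no TMM scaling, and on their scale the median gene moved by -0.28 after ETS in lean and by -0.05 in obese tumors, where the median of the 10 was -0.85 and -0.93. With log2(TPM + 0.1) the lean values were -0.86 for Phgdh, -1.06 for Psat1, -0.97 for Psph and -0.85 for Shmt2, each over 1.5 times the size with scaled counts. With TPM 15.7% of the genes called in lean tumors were higher after ETS, against 48.0% with scaled counts. The same share went from 38.7% to 9.24% for the difference between hosts, from 51.0% to 29.0% for obese against lean before therapy and from 58.7% to 83.8% after ETS.

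Other genes of the pathway came from 6 lists of 101 genes, 84 of them tested. After ETS 14 of the 84 rose and 31 fell in the lean hosts, beside 21.0% and 22.8% of all tested genes, with 12 rises and 26 falls in the obese hosts, beside 21.2% and 19.0%. The counts of the single lists below are read against the same shares. The folate cycle had 0 rises and 4 falls of 13 tested in lean mice, against 2 rises and 3 falls in obese mice. Tyms, thymidylate synthase, fell by 0.61 in lean (SE 0.12, adjusted p = 0.000946) and by 0.95 in obese tumors (SE 0.12, adjusted p = 5.57e-05). Aldh1l1, the cytosolic counterpart of Aldh1l2, rose by 0.999 in obese tumors (adjusted p = 0.0302), as did Mthfs by 0.54 (adjusted p = 0.0284), and their lean values of 0.41 and 0.42 did not pass (adjusted p = 0.345 and 0.0719).

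Among carriers of folate and amino acids, lean tumors showed 2 rises and 4 falls of 12, and obese tumors 3 of each. Slc7a11, the cystine importer, had the largest fall of this list in both hosts, by 2.17 in lean (SE 0.39, adjusted p = 0.000527) and by 1.56 in obese tumors (SE 0.38, adjusted p = 0.00453). Cth fell in both hosts as well, while Cbs rose in lean tumors. Cystine import and transsulfuration each supply cysteine, and the supply itself was not measured. Slc1a4, a transporter of serine and alanine, fell by 1.41 and 0.89 (adjusted p = 0.000533 and 0.0106). Slc46a1, the proton-coupled folate transporter, rose by 1.52 and 1.19 (adjusted p = 0.000234 and 0.00154), and Sfxn3, a mitochondrial serine carrier, rose by 0.65 and 1.09 (adjusted p = 0.00364 and 0.000123). Folr2, a folate receptor of macrophages, rose by 2.79 in obese tumors (SE 1.04, adjusted p = 0.0442) and was at -0.97 in lean tumors (adjusted p = 0.441).

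The methionine cycle showed 1 rise and 5 falls of 13 in lean mice, with 0 rises and 5 falls in obese mice. Mat2a, which makes S-adenosylmethionine, fell by 0.80 in lean tumors (adjusted p = 0.00261) and fell by 0.62 in obese tumors (adjusted p = 0.0129). Its regulatory partner Mat2b rose by 0.24 in lean tumors (adjusted p = 0.0323) and was at -0.04 in obese tumors (adjusted p = 0.776). Of the polyamine genes, Sms fell by 0.50 in lean (adjusted p = 0.000401) and fell by 0.67 in obese tumors (adjusted p = 6.77e-05), and Amd1 fell by 0.74 in obese tumors (adjusted p = 0.00117) with a lean value of -0.18 (adjusted p = 0.304). Nnmt, which methylates nicotinamide, fell by 0.80 in lean tumors (adjusted p = 0.0266) and was at 0.45 in obese tumors (adjusted p = 0.191). Glycine and serine turnover showed 4 rises and 1 fall of 9 in lean mice, against 1 and 3 in obese mice. Gcat, which cleaves the product of threonine oxidation to glycine, fell by 1.36 and 1.40 (adjusted p = 0.000532 and 0.000564), and Sdsl, a serine dehydratase-like gene, rose by 1.31 and 1.33 (adjusted p = 0.00112 and 0.00128). Gamt, the last enzyme of creatine synthesis, rose by 1.04 in lean tumors (adjusted p = 0.00221) and was at 0.27 in obese tumors (adjusted p = 0.372). Gcsh, a subunit of the glycine cleavage system, fell by 0.40 in obese tumors (adjusted p = 0.0255) and was at -0.08 in lean tumors (adjusted p = 0.630).

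Downstream of cysteine, 5 of 14 genes rose and 4 fell in each host. Ggt1, which breaks down extracellular glutathione, rose by 1.84 in lean and 1.90 in obese tumors (adjusted p = 0.000224 and 0.000236). Chac1, which degrades glutathione inside the cell, fell by 1.78 and 1.26 (adjusted p = 0.00346 and 0.0229). Gclc, the catalytic subunit of the enzyme that opens glutathione synthesis, fell by 0.88 in lean (adjusted p = 0.00493) and fell by 0.68 in obese tumors (adjusted p = 0.0224). Csad, on the way to taurine, rose by 0.85 and 0.86 (adjusted p = 0.00170 and 0.00190). Sqor, which oxidises hydrogen sulfide, moved in opposite directions: it fell by 1.79 in lean (adjusted p = 0.0246) and rose by 2.13 in obese tumors (adjusted p = 0.0129), at a mean of 1.70 CPM.

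The amino acid stress response had 2 rises and 13 falls of 23 in the lean hosts, with 1 rise and 8 falls in the obese hosts. Atf4 itself fell by 1.49 in lean (SE 0.38, adjusted p = 0.00620) and fell by 1.30 in obese tumors (SE 0.38, adjusted p = 0.0144). The obese groups overlapped, at 324 to 535 TPM of Atf4 before and 80.7 to 364 TPM after ETS. Atf3 and Cebpb, transcription factors induced by stress, both fell in lean tumors, Atf3 by a log2 of -1.86 and Cebpb of -2.05 (adjusted p = 0.00936 and 0.00465). In obese tumors they were at -0.17 and 0.17 (adjusted p = 0.821 and 0.816). Atf3 there ran from 20.3 to 47.4 TPM before and from 7.54 to 77.3 TPM after ETS (29.5 ± 32.4). That spread leaves its obese value undecided. Gpt2, an alanine aminotransferase, fell by 0.67 in lean (adjusted p = 0.0485) and fell by 0.96 in obese tumors (adjusted p = 0.00954). Sesn2 rose in both hosts, by 1.23 (adjusted p = 6.49e-05) and 0.62 (adjusted p = 0.00829); it encodes a sestrin that restrains mTORC1 and is also a p53 target. Ddit4, which restrains mTORC1 as well, rose by 0.76 in lean tumors (adjusted p = 0.0424) and was at -0.74 in obese tumors (adjusted p = 0.0514). Before therapy 10 of the 23 were higher and 1 lower in obese than in lean tumors, beside 13.5% and 12.9% of all tested genes, and after ETS 5 were higher and 0 lower, beside 3.28% and 2.30%. Over the 6 lists these counts were 16 and 6 of 84 before therapy and 8 and 0 after ETS, beside the same shares.

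**Figure D4:**
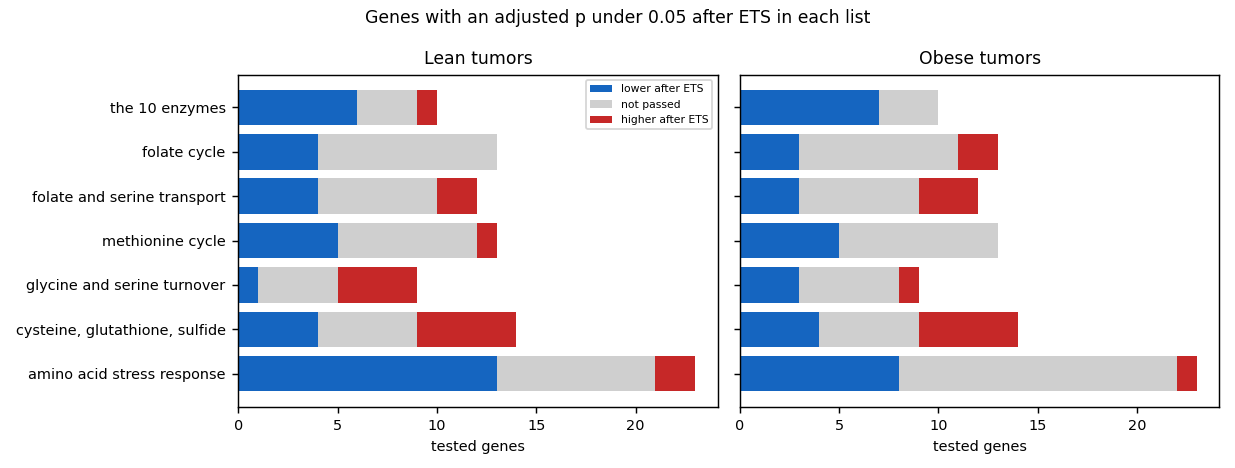
Number of tested genes (horizontal axis) with an adjusted p under 0.05 after ETS in lean tumors (left) and obese tumors (right), for the 10 enzymes and the 6 pathway lists, with falls in blue, rises in red and genes that did not pass in grey. Falls outnumber rises among the 10 enzymes (6 to 1 and 7 to 0) and in the stress response list (13 to 2 and 8 to 1), and the list downstream of cysteine has 5 rises and 4 falls in each host.

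Tumor make-up and growth moved with these results. The 12 proliferation markers, among them Mki67 and Top2a, all fell after ETS in both hosts, from sums of 1435 to 1725 TPM to 665 to 864 in lean tumors and from 1282 to 1434 to 589 to 868 in obese tumors. Of the 10 macrophage markers 8 fell in lean tumors (777 to 2046 TPM before, 69.8 to 493 after). In obese tumors 8 of them rose (62.7 to 394 TPM before, 470.0 to 1548 after). Beside these counts, 22.8% of all tested genes fell in lean tumors, and 19.0% fell and 21.2% rose in obese tumors. The 8 fibroblast markers summed to 327 to 918 TPM before and 119 to 236 after ETS in lean tumors, and to 111 to 310 and 331 to 2207 in obese tumors. The 6 adipocyte markers summed to 191 to 569 TPM in obese post-ETS tumors against 19.5 to 42.3 in lean post-ETS tumors, and Fabp4, the only one tested, carried the sum, with up to 537 TPM where each of the others had at most 15.2. Of the 11 melanocyte markers 7 were lower in obese than in lean tumors before therapy, beside 12.9% of all tested genes. After ETS 3 of them rose in lean and 5 in obese tumors, beside 21.0% and 21.2% of all tested genes, and none fell in either host. The 7 T cell markers summed to 20.6 to 42.1 TPM in lean pre-therapy tumors and to at most 1.90 TPM elsewhere, with each marker under 1 TPM there. The 7 skeletal muscle markers stood high in single tumors, at 248 TPM in lean pre-therapy tumor 2 and 420 TPM in obese post-ETS tumor 2. Lean post-ETS tumors 1 and 2 had 283 and 212 TPM, and all others at most 64.1 TPM. Obese post-ETS tumor 2 also had 124 TPM of the 6 keratinocyte markers, which summed to at most 3.57 TPM elsewhere. The part of these shifts and tissues in the values of the enzymes was not tested.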

How the data were processed

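RNA sequencing of 16 B16F10 tumors was analysed from the gene table the authors deposited, which holds read counts, TPM and FPKM for each tumor (FPKM were not used). Per the labels and the study's methods, the authors trimmed reads with Trimmomatic, aligned them to mm10 with HISAT2 2.1.0 and assembled and counted them with StringTie 2.1.3b. The deposited counts are whole reads per gene, and the deposited TPM are scaled per transcript length and library. Genes without reads in at least 1 tumor were left out, counts were TMM-scaled, and edgeR 4.0.16 (R 4.3.3) fitted all 16 tumors with a mean per group, with quasi-likelihood tests and Benjamini-Hochberg adjustment over 16209 genes. The comparisons were ETS in each host, the difference of these effects, and obese against lean before and after ETS. The steps were tested on simulated data.

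The 10 enzymes, pathway lists and tests were chosen with earlier results of these data known. Besides the enzymes, the text names at most the 2 largest rises and 2 largest falls per list and host, and the 2 largest of each sign in the difference, among those that passed the test and averaged 1 CPM or more. Some genes that this rule names are not reported here. No enzyme passed in the difference, so no genes of like pattern were named. Alternatives were DESeq2 1.42.0, its size factors, an exact test on counts with 1 added, other filters, limma 3.58.1 on log2(TPM + 1) and log2(TPM + 0.1), only the compared tumors, a replicate block and leaving out each tumor. Neither labels nor headers name a batch. No pair of tumors within a group agreed within sampling noise. Precision is limited by 4 tumors per group, and intervals are 95% from the fit.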

Additional observations from a re-analysis of the deposited data

Results flagged for a closer look

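Mthfd1l in obese post-ETS tumor 1 stood at 361 CPM, apart from the other 3 tumors of its group, with a gap of 0.833 of the group's range where 0.829 is the limit for 4 samples. Each of the 10 enzymes was examined in each of the 4 groups, 40 groups in all, and chance alone marks about 1 in 20.

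In 9 genes of the pathway lists the response to ETS differed between hosts in edgeR's quasi-likelihood test, given here as the log2 effect in lean minus that in obese tumors. Of 84 tested, 5 passed with a value above 0 and 4 with a value below 0, beside 6.35% and 10.1% of all tested genes. Slc1a5, a glutamine transporter, was at -0.68 (adjusted p = 0.0126), and fell by 0.77 in lean tumors. Nnmt, which methylates nicotinamide, was at -1.25 (adjusted p = 0.0357). Ahcy, which hydrolyses S-adenosylhomocysteine, was at 0.57 (adjusted p = 0.0427). In glycine and serine turnover Srr, serine racemase, was at 0.55 (adjusted p = 0.0406) and Dld, a subunit shared by the glycine cleavage system and pyruvate dehydrogenase, at 0.45 (adjusted p = 0.0385).

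Among genes of hydrogen sulfide, Mpst, which can make it, was at 0.54 (adjusted p = 0.0335) and Sqor, which oxidises it, was at -3.93 (adjusted p = 0.00559). Of the stress response, Ddit4 was at 1.51 (adjusted p = 0.0197) and Cebpb at -2.21 (adjusted p = 0.0396). In the same test 9 of the 10 macrophage and 7 of the 8 fibroblast markers passed with a value below 0, beside 10.1% of all tested genes. The part of these markers' cells in the values of Nnmt, Sqor and Cebpb was not tested.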

How the results depend on the processing

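The counts of enzymes called after ETS within a host stayed within 1.5 times their value under every alternative. Leaving out 1 tumor at a time gave 5 to 7 in lean tumors, 6 to 7 in obese tumors, 0 to 1 for the difference, 1 to 5 before therapy and 0 to 1 after ETS between hosts. For the pathway lists these ranges were 36 to 50, 26 to 42, 3 to 9, 10 to 27 and 1 to 17. DESeq2 called 1 enzyme in the difference, where edgeR called 0. Between hosts after ETS, 2 enzymes were called with log2(TPM + 1), 2 with log2(TPM + 0.1) and 0 with only the compared tumors in the fit, against 1. Against 8 pathway genes called there, 2 were called with no exclusion of genes with a 0 and 20 with the exact test. DESeq2 called 23, the fit of only the compared tumors 0 and the replicate block 16. The share of all tested genes called under each of these settings is not given here. The counts of this section thus show dependence on the processing and nothing particular to the pathway.

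A replicate block on the tumor numbers gave 7, 7, 0, 3 and 1 enzymes and 46, 43, 9, 24 and 16 pathway genes in the 5 comparisons. The numbers only name tumors: deviations of tumors with the same number correlated between 0.03 and 0.45 in lean and between -0.03 and 0.20 in obese tumors.

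Signs turned only for values that passed in neither setting. With log2(TPM + 1) and log2(TPM + 0.1), Mthfd1l in lean tumors was -0.18 and -0.18, and the differences were -0.13 and -0.13 for Psat1, -0.017 and -0.019 for Shmt1, -0.10 and -0.10 for Shmt2 and -0.14 and -0.14 for Mthfd2, while the median gene differed by -0.16. With single tumors left out, values ran across 0 for the difference of Mthfd1l (-0.122 to 0.0515), for Cbs before therapy (-0.280 to 0.0978) and, between hosts after ETS, for Phgdh (-0.111 to 0.103), Psat1 (-0.0584 to 0.0923) and Shmt1 (-0.0769 to 0.190). The cause was not tested. TPM also called Shmt1 in lean tumors (-0.71, adjusted p = 0.00789) and Mthfd1l between hosts after ETS (0.40, adjusted p = 0.0472). Cbs rested on 43 to 213 and Cth on 86 to 895 reads per tumor.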
